A study of Mus musculus with 6 samples.

Results

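Retinoic acid is the signalling form of vitamin A, and 7 genes that make it, carry its precursor, break it down or answer to it are described here across the cells of the postnatal mouse lung: Rbp4, Stra6, Aldh1a1, Aldh1a2, Aldh1a3, Rarb and Cyp26b1. Their values are found by gene symbol alone, with no cut on a measured value, and they are 7 of the 56884 genes counted. The study removed secreted factors from pericytes, the mural cells that wrap capillaries, to ask what these factors do for neighbouring cells, and 4 of its 6 libraries are from lung. They are a Bdnf lox/lox control, a Bdnf iPCKO, an Hgf lox/lox control and an Hgf iPCKO library, all from mice at postnatal day 21. iPCKO stands for inducible pericyte knockout: floxed Bdnf or Hgf is recombined in cells where the Pdgfrb(BAC)-CreERT2 transgene is active, and Pdgfrb is also expressed by other mural cells and by fibroblasts. Controls are lox/lox littermates, for which the labels list no CreERT2, and all mice received 50 µg tamoxifen a day from postnatal day 1 to 3. Each library held cells pooled from 2 mice, out of 40000 cells prepared, after magnetic depletion of CD45+ cells and of Ter119+ erythrocytes.

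Retinol travels in blood bound to RBP4 and can enter cells through the receptor STRA6. Retinol dehydrogenases turn it into retinal, and the retinal dehydrogenases ALDH1A1, ALDH1A2 and ALDH1A3 turn retinal into retinoic acid, which binds nuclear receptors such as RARβ. CYP26 enzymes, among them CYP26B1, oxidise retinoic acid and so limit where it acts. In the lung, retinoic acid is known for its part in forming alveoli, and Rarb and the Cyp26 genes are textbook genes that retinoic acid switches on.

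Cells were named by fixed marker genes, and a name such as "club-like" means only that a cell carried those markers. The 4 libraries gave 15024, 20283, 12947 and 13889 named cells (Bdnf control, Bdnf iPCKO, Hgf control and Hgf iPCKO). Leaving aside endothelial cells that could not be placed in a subtype, 15 cell classes had at least 20 cells in every library. Library totals ran from 69403166 to 186701379 estimated UMIs (unique molecular identifiers, each marking 1 captured RNA molecule), and the Hgf libraries were the shallower ones. Levels are given in CPM, the usual scaling of a gene's UMIs to the summed UMIs of the class in that library. With 1 library per group no difference between groups could be tested: intervals are exact 95% Poisson or binomial intervals of the counts, and they cover counting error only, not differences between mice. Between any 2 libraries 240 to 437 of the barcodes with a cell were the same, against 243 to 441 for independent draws from the barcode set. The targeted genes were sparse in the pericyte-like cells. Bdnf had 5 UMIs in 108 control cells and 2 UMIs in 135 iPCKO cells, too few to separate the libraries. Hgf had 24 UMIs in 88 control cells and 10 UMIs in 233 iPCKO cells, or 145 and 26.9 CPM.

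Retinoic acid receptors bind direct repeats of a short motif. The promoters of Rarb and Cyp26b1, 2 of the response genes among the 7, are shown because they differ in this. Windows from 250 bases before to 50 bases after a transcript start (RefSeq, mouse build GRCm38.p6) were searched on both strands for pairs of 6-base motifs in the same orientation, 1, 2 or 5 bases apart. The motifs were AGGTCA, as well as its variant GGTTCA, the variant GGGTCA, and the variant AGTTCA. Of the 7 genes, 6 had windows, 11 in all. Only 1 window, of Rarb, held a match, a repeat spaced by 5 bases, shown in capitals.
Rarb: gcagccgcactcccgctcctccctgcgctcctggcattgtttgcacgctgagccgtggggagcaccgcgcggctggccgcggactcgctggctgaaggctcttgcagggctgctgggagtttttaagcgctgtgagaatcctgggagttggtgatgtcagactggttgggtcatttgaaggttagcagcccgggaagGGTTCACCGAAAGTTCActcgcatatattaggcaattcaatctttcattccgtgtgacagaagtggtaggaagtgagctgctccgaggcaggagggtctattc
Cyp26b1: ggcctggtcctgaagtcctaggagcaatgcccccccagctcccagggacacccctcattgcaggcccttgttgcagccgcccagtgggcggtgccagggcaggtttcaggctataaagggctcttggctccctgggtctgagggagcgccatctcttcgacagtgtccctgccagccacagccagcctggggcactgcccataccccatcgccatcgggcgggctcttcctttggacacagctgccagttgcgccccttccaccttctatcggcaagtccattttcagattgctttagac
The Rarb window lies at chr14:16575427-16575726 on the minus strand of GRCm38.p6, and its repeat begins 53 bases before the transcript start. The same 300 bases occur once in GRCm39, the build of the count files, at chr14:5894037-5894336 on the plus strand, inside the annotated gene. The Cyp26b1 window lies at chr6:84593761-84594060 on the minus strand of GRCm38.p6 and at chr6:84570743-84571042 in GRCm39. It held no match, which says only that these letters are absent from the window. Such repeats with a spacing of 5 bases were found in 32 of 32851 windows (0.0974%), those with a spacing of 2 in 0.268% and those with a spacing of 1 in 0.222%. The window of Cyp26a1, a CYP26 gene outside the 7, also held a repeat spaced by 5 bases, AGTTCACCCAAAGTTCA, on the antisense strand.

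Each of the 7 genes except Stra6 was concentrated in a few cell classes. Rbp4 and Aldh1a3 were highest in adventitial fibroblast-like cells, as was Aldh1a2 among the 15 classes. Aldh1a1 was highest in club-like, ciliated-like and matrix fibroblast-like cells, Rarb in club-like, ciliated-like and venous-like cells, and Cyp26b1 in arterial-like, venous-like and gCap-like (general capillary) endothelial cells. The plot of levels by class and library shows these patterns. Aldh1a1 and Rbp4 span fibroblasts and airway epithelium, and Rarb spans airway epithelium and endothelium.

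**Figure D1:**
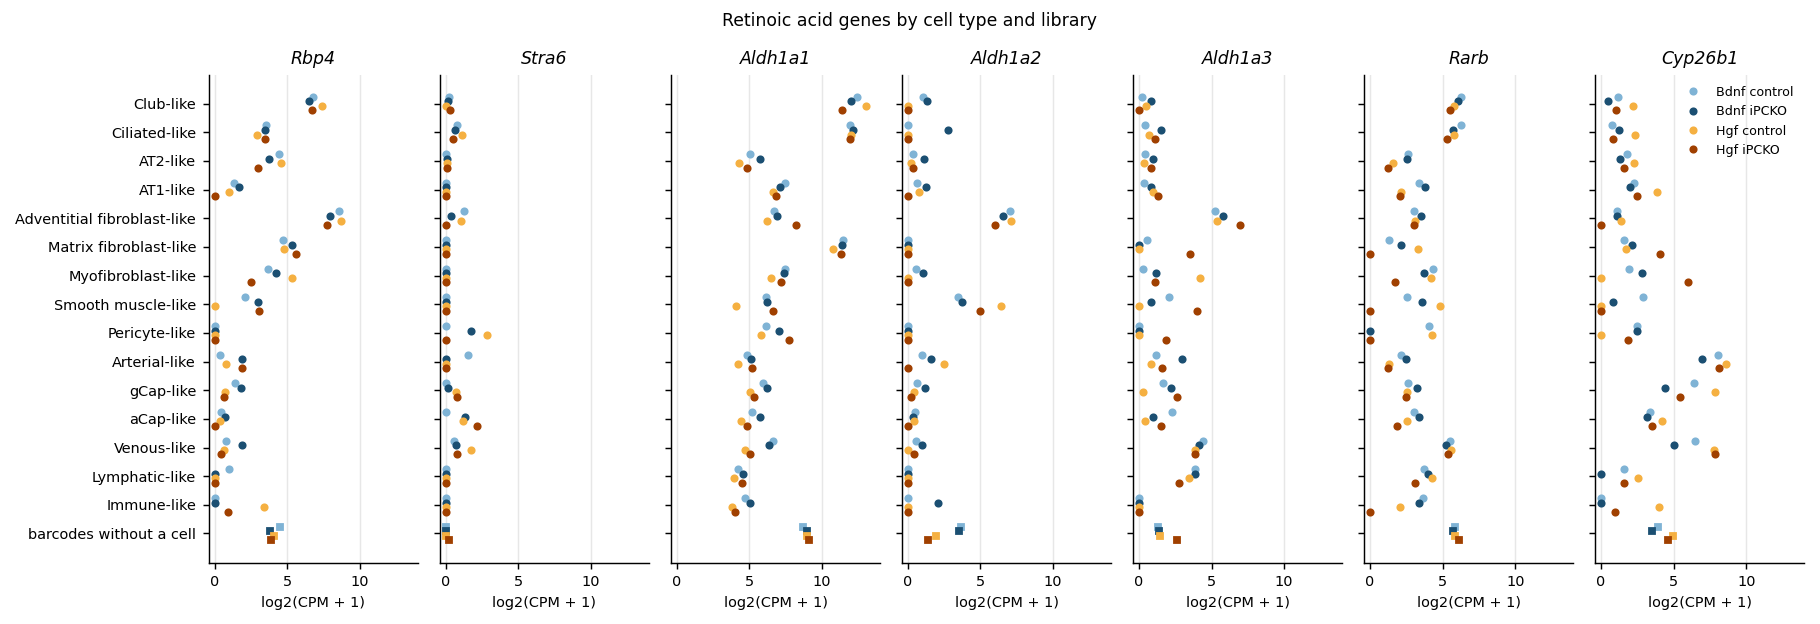
Level of each gene as log2(CPM + 1) in 15 cell classes, with 1 dot per library and squares for barcodes without a cell (10 to 100 UMIs). Aldh1a1 stands above the squares only in club-like, ciliated-like and matrix fibroblast-like cells, and the highest Stra6 dot, pericyte-like cells of the Hgf control at 6.04 CPM, rests on 1 UMI.

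Among the carriers and uptake genes, Rbp4 (chr19:38105066-38113754 in GRCm39, protein coding) encodes the plasma carrier of retinol. In adventitial fibroblast-like cells it stood at 382, 246, 413 and 215 CPM in the Bdnf control, Bdnf iPCKO, Hgf control and Hgf iPCKO libraries. Both iPCKO libraries were below both controls there. The log2 ratio of iPCKO over control was -0.64 (interval -0.72 to -0.55) in the Bdnf pair and -0.94 (-1.23 to -0.66) in the Hgf pair, short of the 2-fold difference used as a mark of size. Median-of-ratios scaling, which shifts this class of the Hgf pair by 0.21 on the log2 scale, takes the Hgf ratio past 2-fold, to -1.15. The share of these cells with an Rbp4 UMI was 83.5%, 64.6%, 78.1% and 43.8%, and 43.4%, 32.3%, 45.6% and 27.7% after each cell was thinned to 1781 UMIs.

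Club-like cells came next for Rbp4, at 111, 89.3, 171 and 101 CPM, and their range did not overlap that of the adventitial fibroblast-like cells. Matrix fibroblast-like cells followed at 25.03, 40.0, 26.9 and 46.8 CPM, and myofibroblast-like cells at 12.1, 17.7, 38.9 and 4.69 CPM. In the Bdnf pair both were higher in the iPCKO library, by log2 ratios of 0.68 (0.02 to 1.32) and 0.56 (0.06 to 1.07). The Hgf pair gave 0.80 (-0.63 to 2.17) in the first and held only 11 and 4 UMIs in the second. AT2-like cells, the surfactant-making alveolar epithelium, were at 21.1, 12.2, 22.8 and 6.81 CPM. Barcodes without a cell held 13.3 to 21.9 CPM. Free RNA was estimated at 10.7%, 16.3%, 10.2% and 11.4% of the UMIs of AT2-like cells, shares that can be too high. There the ratio was -0.79 (-0.93 to -0.64) in the Bdnf pair and -1.75 (-2.06 to -1.45) in the Hgf pair, from 645 and 104 UMIs. In adventitial fibroblast-like, club-like and AT2-like cells Rbp4 was thus lower in the iPCKO library of both pairs by more than counting error. In the Bdnf pair matrix fibroblast-like and myofibroblast-like cells went the other way. The markers of the class itself summed to 24638, 19956, 30610 and 23506 CPM in adventitial fibroblast-like cells. They summed to 118170, 108580, 135650 and 98805 CPM in AT2-like and to 83133, 97759, 125180 and 129940 CPM in club-like cells. In AT2-like cells the club markers summed to 5077, 6297, 6927 and 16882 CPM, with 5 and 4 of 7 higher. The part of these sums in the Rbp4 results was not tested.

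Stra6 (chr9:57970967-58063543), the retinol receptor, was close to absent. The named cells held 38, 26, 24 and 25 Stra6 UMIs in the 4 libraries, and none of the 15 classes reached 20 UMIs over either pair. All endothelial cells together held 9 and 13 UMIs in the Bdnf pair and 16 and 22 in the Hgf pair, log2 ratios of 0.47 (-0.87 to 1.87) and 0.17 (-0.83 to 1.20). Its highest count in any of the 15 classes was 11 UMIs, both in aCap-like (aerocyte) cells of the Hgf iPCKO library (3.51 CPM) and in adventitial fibroblast-like cells of the Bdnf control (1.41 CPM), and 1 UMI in the 88 pericyte-like cells of the Hgf control gave 6.04 CPM. Mesothelial-like cells, the lining of the lung surface, held 12 UMIs in 36 cells of the Bdnf control library, 10 of them in 1 cell, and 4 UMIs in 119 cells of the Bdnf iPCKO library.

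Among the retinal dehydrogenases, Aldh1a1 (chr19:20469539-20622825) was highest in the conducting airway and was also high in matrix fibroblast-like cells. In club-like cells, the secretory cells of the airways, it stood at 5437, 4159, 8309 and 2657 CPM. The Hgf iPCKO library was the lowest and the Hgf control the highest, a 3.13-fold gap with a log2 ratio of -1.64 (-1.68 to -1.61), whereas the Bdnf pair differed by -0.39 (-0.41 to -0.37). The 2 controls themselves differed by 1.53-fold. The count of club-like cells also differed, with 254 in the Hgf control and 623 in the Hgf iPCKO library, and the 7 club markers summed to 125180 and 129940 CPM in them, 2 of 7 being higher in the iPCKO library. In the same cells the AT2 markers summed to 11587 and 6142.5 CPM, the goblet-like secretory markers to 118 and 23.0 CPM and the cycling markers to 67.5 and 4.81 CPM, and their part in the Aldh1a1 gap was not tested.

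Ciliated-like cells carried Aldh1a1 at 3817, 4440, 4113 and 3807 CPM, and here the libraries lay within a narrow range. Matrix fibroblast-like cells, the alveolar fibroblasts marked by Tcf21 and Inmt, carried 2766, 2603, 1745 and 2563 CPM, with UMIs in 97.8%, 94.8%, 86.5% and 77.9% of cells. The shift from median-of-ratios scaling was 0.27 in the Hgf pair of this class, where the Aldh1a1 ratio of 0.56 (0.39 to 0.72) became 0.29. The ranges of club-like and ciliated-like cells overlapped, as did those of club-like and matrix fibroblast-like cells. Those of ciliated-like and matrix fibroblast-like cells did not. Outside the 15 classes, mesothelial-like cells carried 551, 642.5, 631 and 1994 CPM, above barcodes without a cell in each library. The Hgf libraries held only 6 and 12 of these cells, with a log2 ratio of 1.66 (0.95 to 2.45). Next among the 15 classes came adventitial fibroblast-like cells, at a mean of 146 CPM, against 415 to 547 CPM in barcodes without a cell. Aldh1a1 in the other 12 of the 15 classes therefore lay below the level in those barcodes.

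Within that lower range, Aldh1a1 in adventitial fibroblast-like cells was 102, 119, 71.9 and 289 CPM, and in pericyte-like cells 70.4, 129, 54.4 and 211 CPM. The Hgf iPCKO library was the highest in both. The log2 ratio of the Hgf pair was 2.01 (1.67 to 2.35) in the first and 1.96 (0.95 to 3.13) in the second, the latter from 9 and 78.5 UMIs. In adventitial fibroblast-like cells the 10 matrix fibroblast markers summed to 1404, 1677, 1745 and 3566 CPM, 5 of 10 being higher in the Hgf iPCKO than in the Hgf control library. The 7 club markers summed to 286, 845, 336 and 1112 CPM there, 5 of 7 being higher in that comparison, and the 9 pericyte markers to 112, 197, 126 and 297 CPM, 4 of 9 being higher. The part of these sums in the result was not tested.

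Aldh1a7 (chr19:20667107-20704932) is a neighbouring copy of Aldh1a1 in rodents. The longest coding transcripts of the 2 genes shared 50 of 6128 stretches of 75 bases (0.816%), and none in the last 500 bases. Tags of this assay are expected to fall there, but where they fell and how many reads the genes shared were not checked. Aldh1a7 was also highest in club-like cells, at 1675, 1397, 1601 and 933 CPM. In AT2-like cells it stood at 303, 255, 288 and 137 CPM, beside 169, 182, 154 and 131 CPM in barcodes without a cell.

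Aldh1a2 (chr9:71122630-71203527), the main source of retinoic acid in the embryo, was nearly limited to the adventitia and the lung surface. Adventitial fibroblast-like cells, which lie around vessels and airways, carried 132, 94.0, 139 and 63.0 CPM. The iPCKO libraries were both below the controls, with log2 ratios of -0.49 (-0.63 to -0.35) and -1.15 (-1.69 to -0.64), the second from 270 and 36 UMIs. With a stricter gate the Hgf ratio was -0.90, below 2-fold. The 10 adventitial fibroblast markers summed to 24638, 19956, 30610 and 23506 CPM in the same cells, and their part in the result was not tested. UMIs of Aldh1a2 were seen in 41.8%, 26.4%, 38.1% and 17.0% of these cells, and in 16.7%, 11.6%, 18.1% and 9.52% after thinning to 1781 UMIs.

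Mesothelial-like cells are added here after their values were seen, because the Hgf libraries held only 6 and 12 of them. Aldh1a2 stood at 2203, 1160, 996 and 665 CPM in them, above every other class in each library, and was found in 36 of 36, 113 of 119, 6 of 6 and 11 of 12 cells. The Bdnf pair differed by -0.92 (-1.06 to -0.79), and the interval of the Hgf pair, -1.32 to 0.17, included 0. In smooth muscle-like cells Aldh1a2 ranged from 9.86 to 86.0 CPM on at most 16 UMIs. All other classes stayed at or below 5.85 CPM.

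Aldh1a3 (chr7:66040638-66077850) was higher in the adventitial fibroblast-like cells of both iPCKO libraries, where Aldh1a2 was lower. In these cells Aldh1a3 stood at 36.4, 54.5, 40.8 and 122 CPM. The interval of the difference between the controls, -0.22 to 0.53, included 0, and both iPCKO libraries were above them, with log2 ratios of 0.58 (0.36 to 0.81) and 1.59 (1.10 to 2.07). The second rests on 79 and 70 UMIs in 278 and 153 cells. The matrix fibroblast, club, pericyte and adventitial fibroblast marker sums given for Aldh1a1 and Aldh1a2 are of the same cells, and their part in the Aldh1a3 result was not tested. Venous-like cells came next, at 20.4, 16.4, 13.7 and 13.2 CPM, and both intervals of their ratios included 0. In gCap-like cells the Hgf pair had 1 and 28 UMIs, a ratio of 23.6 (log2 interval 1.96 to 9.91), at a level of only 5.07 CPM in the iPCKO library against 5.06 CPM in its barcodes without a cell.

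The receptor gene Rarb (chr14:5650540-6041094) was highest in club-like, ciliated-like and venous-like cells. It stood at 75.9, 65.4, 54.5 and 45.1 CPM in club-like cells, 76.0, 50.7, 52.9 and 38.5 CPM in ciliated-like cells and 44.3, 36.7, 45.8 and 39.6 CPM in venous-like cells. These 3 ranges overlapped one another, and the next class, lymphatic-like cells, had a mean of 13.2 CPM. Barcodes without a cell held 57.5, 51.7, 57.2 and 69.8 CPM of Rarb. That is above each of the 15 classes in both Hgf libraries, and below the club-like cells in both Bdnf libraries. The 2 controls were more than 2-fold apart in 2 of 10 classes, both of low level. The Bdnf and Hgf controls held 9.46 and 3.47 CPM in AT1-like cells and 5.27 and 1.98 CPM in AT2-like cells.

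In ciliated-like cells Rarb was lower in both iPCKO libraries, by log2 ratios of -0.59 (-0.88 to -0.30) and -0.46 (-0.89 to -0.02). In club-like cells the ratios were -0.21 (-0.39 to -0.04) and -0.27, the latter with an interval from -0.59 to 0.05. In the Bdnf pair myofibroblast-like cells were also lower, at -0.68 (-1.16 to -0.18), and 3 classes of low level were higher: gCap-like at 0.72 (0.14 to 1.35), adventitial fibroblast-like at 0.55 (0.03 to 1.09) and AT1-like at 0.43 (0.07 to 0.80). No class with at least 20 UMIs over the pair reached a 2-fold difference in Rarb, out of 11 in the Bdnf and 7 in the Hgf pair. Of all combinations of gene and class, 6.21% and 14.8% did so, and such small counts cannot tell Rarb from other genes.

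Cyp26b1 (chr6:84548396-84570890), the gene for the enzyme that clears retinoic acid, was lower in gCap-like cells of both iPCKO libraries by more than 2-fold. In gCap-like cells, which form most of the capillary network, it stood at 83.7 CPM (77.4 to 90.3) in the Bdnf control, 20.2 (17.1 to 23.6) in the Bdnf iPCKO, 234 (220 to 248) in the Hgf control and 42.9 (37.6 to 48.8) in the Hgf iPCKO library. Both iPCKO libraries were below both controls. The gap was 4.15-fold in the Bdnf pair, a log2 ratio of -2.05 (-2.32 to -1.80), and 5.44-fold in the Hgf pair, -2.44 (-2.65 to -2.24). It rests on 650 and 152 UMIs, and on 1087 and 237 UMIs. Barcodes without a cell held 14.4, 10.6, 29.8 and 23.7 CPM of Cyp26b1, below the gCap-like cells of the same library each time.

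The share of gCap-like cells with a Cyp26b1 UMI was 20.8% (370 of 1782), 4.97% (107 of 2151), 25.1% (565 of 2248) and 6.25% (166 of 2658). After thinning to 1004 UMIs, which left out 0, 0, 213 and 265 shallower cells, it was 7.02%, 1.75%, 16.2% and 3.34%. AT2-like cells, which should lack the gene, had a UMI in 1.39%, 0.797%, 1.28% and 0.571% of cells at median depths of 8636, 6104, 4801 and 3655 UMIs, against 3691.5, 2883, 1733.5 and 1649.5 UMIs in gCap-like cells. All 4 gCap-like shares were above that background.

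The 6 gCap markers summed to 5560, 4630, 5960 and 4926 CPM in these cells and the 8 arterial markers to 1181, 1326, 1501 and 1512 CPM. The 7 club markers summed to 928, 1877, 1123 and 2534 CPM and the 7 lymphatic markers to 1735.5, 2402, 1258 and 2333 CPM, higher in both iPCKO libraries, although only 4 of 7 and 3 of 7 lymphatic markers were higher. The 9 AT2 markers summed to 1630.5, 2484, 1738 and 876 CPM, the 5 erythroid markers to 45.6, 23.8, 21.7 and 157 CPM and the 5 cycling markers to 90.7, 35.6, 3.12 and 3.86 CPM, and the part of all these sums in the result was not tested. Endothelial cells that could not be placed in a subtype, a class added after its values were seen, had the arterial markers Hey1, Sox17 and Efnb2 among their 10 leading genes in all 4 libraries, with the cartilage genes Col2a1 and Col11a1 first in the Bdnf control. They gave 105, 31.9, 192 and 57.4 CPM of Cyp26b1. Their log2 ratios were -1.72 (-2.01 to -1.45) and -1.74 (-2.01 to -1.48).

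Arterial-like cells had the highest mean Cyp26b1, at 267, 120, 393 and 275 CPM, and their ratio was -1.15 (-1.32 to -0.98) in the Bdnf pair and -0.52 (-0.70 to -0.33) in the Hgf pair. With Leiden clusters the Bdnf ratio was -0.93, below 2-fold. Venous-like cells stood at 89.1, 32.2, 217 and 232 CPM. There the Bdnf iPCKO library was 2.76-fold below its control, -1.47 (-1.74 to -1.19), and the Hgf pair gave 0.10 (-0.09 to 0.29). In the venous-like cells the 8 aCap markers summed to 452, 1037, 625 and 1115.5 CPM, the 9 pericyte markers to 28.1, 77.2, 57.0 and 109 CPM and the 5 cycling markers to 274, 7.98, 6.54 and 4.04 CPM, and in arterial-like cells the 7 lymphatic markers summed to 1894, 2542, 2250 and 8579 CPM, with 2 of 7 and 3 of 7 higher. Their part in these ratios was not tested. aCap-like cells, the gas-exchange capillary cells, stood at 9.10, 7.96, 17.1 and 10.2 CPM, below barcodes without a cell in every library. Lymphatic-like cells held at most 3 UMIs. The ranges of arterial-like, venous-like and gCap-like cells overlapped in that order.

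**Figure D2:**
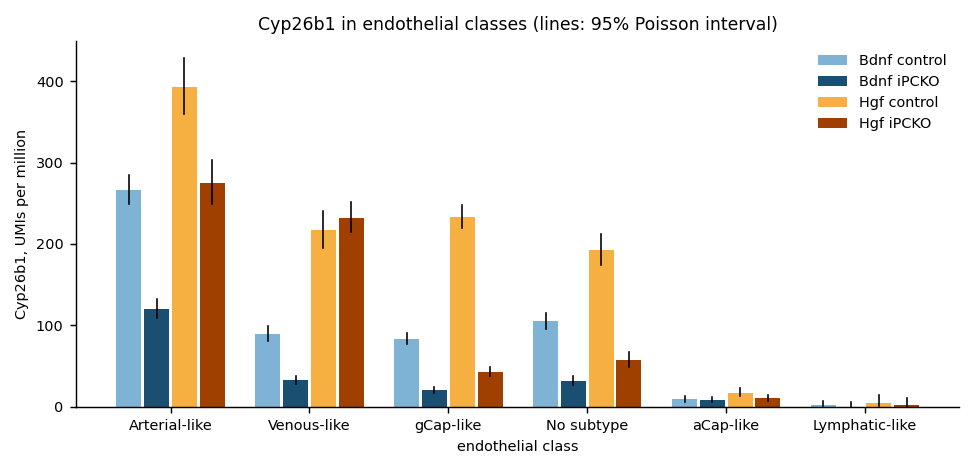
Cyp26b1 in CPM for 6 endothelial classes, with 1 bar per library and lines for the exact 95% Poisson interval. The iPCKO bars of gCap-like cells and of endothelial cells with no subtype are below both controls, and the 2 Hgf bars of venous-like cells are alike at 217 and 232.

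The controls also differed from each other. The Hgf control was 2.79-fold above the Bdnf control in gCap-like cells, 2.43-fold in venous-like cells and by a log2 ratio of 0.56 (0.40 to 0.72) in arterial-like cells. In venous-like and arterial-like cells these gaps were about as wide as some of those between control and iPCKO.

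Outside the endothelium Cyp26b1 was seen in myofibroblast-like cells of the Hgf iPCKO library. The 4 libraries held 12, 33, 0 and 53 UMIs, or 2.73, 6.03, 0 and 62.1 CPM. The 0 was in 125 cells and was set to a floor of 10.6 CPM (3 UMIs over the library's class). Against that floor the Hgf iPCKO level was at least 5.85-fold higher before counting error. The log2 ratio was 2.55, with a lower counting limit of 2.20. The 53 UMIs of the Hgf iPCKO library were spread over 40 of 493 cells, with at most 3 in a cell. In the 2 Hgf libraries the 8 endothelial markers summed to 168 and 273 CPM in these cells, the 8 arterial markers to 467 and 111 CPM and the 6 gCap markers to 602 and 418 CPM. The 10 matrix fibroblast markers summed to 276 and 611 CPM and the 9 myofibroblast markers to 23038 and 15449 CPM. The part of these sums in the result was not tested.

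**Figure D3:**
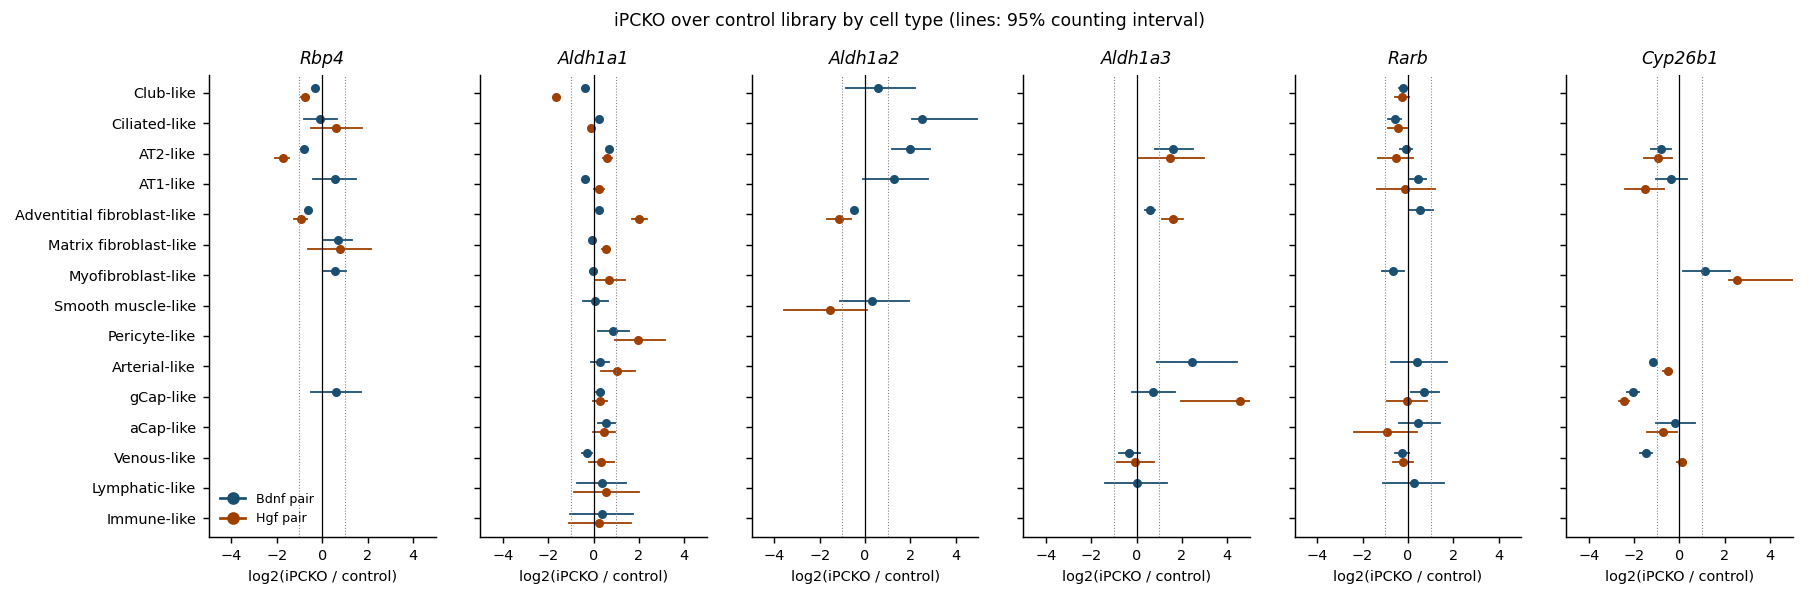
Log2 ratio of iPCKO over control for 6 genes in each class with at least 20 UMIs over the pair, Bdnf pair in blue and Hgf pair in brown. Lines are 95% counting intervals, cut at the axis or open where a control had no UMI, and dotted lines mark 2-fold; Cyp26b1 in gCap-like cells is at -2.05 and -2.44.

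Over the 15 classes, the 7 genes gave 53 combinations of gene and class with at least 20 UMIs in the Bdnf pair, of which 9 were at least 2-fold apart, 6 higher and 3 lower in the iPCKO library. Of all 187555 such combinations in that pair, 6.21% were past 2-fold. The 6 higher ones were Aldh1a2 in AT1-like, AT2-like and ciliated-like cells, Aldh1a3 in AT2-like and arterial-like cells and Cyp26b1 in myofibroblast-like cells. All but Aldh1a3 in arterial-like cells (4 and 23 UMIs) lay below the level in barcodes without a cell of both libraries. The count of 9 therefore cannot be read as an excess over 6.21%. In the Hgf pair 13 of 39 were past 2-fold, 7 higher and 6 lower, against 14.8% of 147765. Some of these combinations rest on levels near or below 1 CPM, such as Aldh1a2 in the alveolar epithelium of the Bdnf pair. It stood at 0.31 and 1.21 CPM in AT2-like cells and at 0.58 and 1.40 CPM in AT1-like cells. Barcodes without a cell held 11.8 and 10.3 CPM there, and free RNA was estimated at 10.7% to 20.3% of UMIs. The Aldh1a2 levels are below what such shares would bring, so these shares can be too high. Cyp26b1 in AT1-like cells, among the lower ones of the Hgf pair at -1.50, was at 0.42 with Leiden clusters. In gCap-like cells Cyp26b1 was 1 of 5 measured genes past 2-fold in the Bdnf pair (all genes 5.48%), and with Aldh1a3 it made 2 of 4 in the Hgf pair (13.5%). In AT2-like cells 2 of 6 (Aldh1a2 and Aldh1a3, both at or below 1.21 CPM) and 2 of 5 (Rbp4 and Aldh1a3) were past it, against 5.78% and 14.3%. In adventitial fibroblast-like cells it was 0 of 5 and 3 of 4 (Aldh1a1, Aldh1a2 and Aldh1a3), against 5.51% and 20.97%.

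The wider retinoid pathway was read from a list of 81 gene symbols, 79 of them in the files, each in the class where its mean level was highest. In the Bdnf pair 59 had at least 20 UMIs, 2 of these were at least 2-fold higher and 4 lower in the iPCKO library, and the median log2 ratio was -0.05. The counts depend on the minimum and the gate: with no minimum of UMIs 8 were higher and 9 lower, and with Leiden clusters 1 was higher and 2 were lower. Over all 15553 genes treated alike 6.52% were past 2-fold and the median was -0.07. In the Hgf pair 4 of 55 were higher and 7 lower, with a median of -0.04 (8 higher and 15 lower with no minimum), against 19.03% past 2-fold and a median of -0.09 over 14213 genes. The median of the list lay close to that of all genes in both pairs.

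Of the listed genes that carry, store and take up retinol, 2 of 13 were higher and 3 lower past 2-fold in the Bdnf pair, and 2 of 13 higher and 4 lower in the Hgf pair, beside the 6.52% and 19.03% of all genes. Past 2-fold were 0 of 12 receptors and cofactors in either pair, 0 of 15 and 1 of 12 genes of retinol and retinal redox, and 0 of 11 and 1 of 11 response genes. The retinal dehydrogenases gave 0 of 4 and 3 of 4 and the breakdown genes 1 of 2 and 0 of 2, and the retinoic acid carriers 0 of 2 and 0 of 1. Rbp7, an intracellular retinol carrier of endothelium, had 467, 181, 200 and 5 UMIs in arterial-like cells, or 144, 52.6, 152 and 3.32 CPM, log2 ratios of -1.45 (-1.70 to -1.20) and -5.51 (-7.15 to -4.26). Lrat, which esterifies retinol for storage, was highest in matrix fibroblast-like cells at 276, 168, 126 and 10.4 CPM, and the last value rests on 2 UMIs in 140 cells, a ratio of -3.60 (-6.68 to -1.68). Lpl, a lipase that helps tissues take up lipids and retinyl esters, was higher in gCap-like cells of both iPCKO libraries, at 415, 904, 394 and 3275 CPM. Rbp7 and Lrat were thus lower, and Lpl higher, in the iPCKO library of each pair. The 2 controls differed in Lrat by a log2 ratio of -1.13 (-1.56 to -0.74). The Bdnf pair differed less, at -0.72 (-0.99 to -0.45). In matrix fibroblast-like cells the 10 matrix fibroblast markers summed to 18207, 17199, 19791 and 17551 CPM. The 9 myofibroblast markers summed to 2993, 3502, 2039 and 3228.5 CPM there, with 6 and 5 of 9 higher in the iPCKO libraries. The part of such sums in these results was not tested.

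Lrp2, an uptake receptor for retinol carriers among other ligands, was lower in AT2-like cells of the Hgf iPCKO library, 290 to 92.6 CPM, a ratio of -1.65 (-1.73 to -1.56). Stra6l, a relative of Stra6, had 13.4 and 53.4 UMIs in lymphatic-like cells of the Hgf pair, a ratio of 2.25 (1.38 to 3.28), while the Bdnf control held 1 UMI and the Bdnf iPCKO 1.5. Dgat1, an enzyme of triglyceride and retinyl ester synthesis, had 68 and 24 UMIs in the few immune-like cells of the Bdnf pair, 153 and 76.5 CPM, and 82.3 and 41.3 CPM in the Hgf pair. Akr1b8, an aldo-keto reductase, went from 17.2 to 46.1 CPM in ciliated-like cells of the Hgf pair. Tgm2, a transglutaminase that retinoic acid induces in many cells, was 2.53-fold lower in venous-like cells of the Hgf iPCKO library, -1.34 (-1.49 to -1.19).

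**Figure D4:**
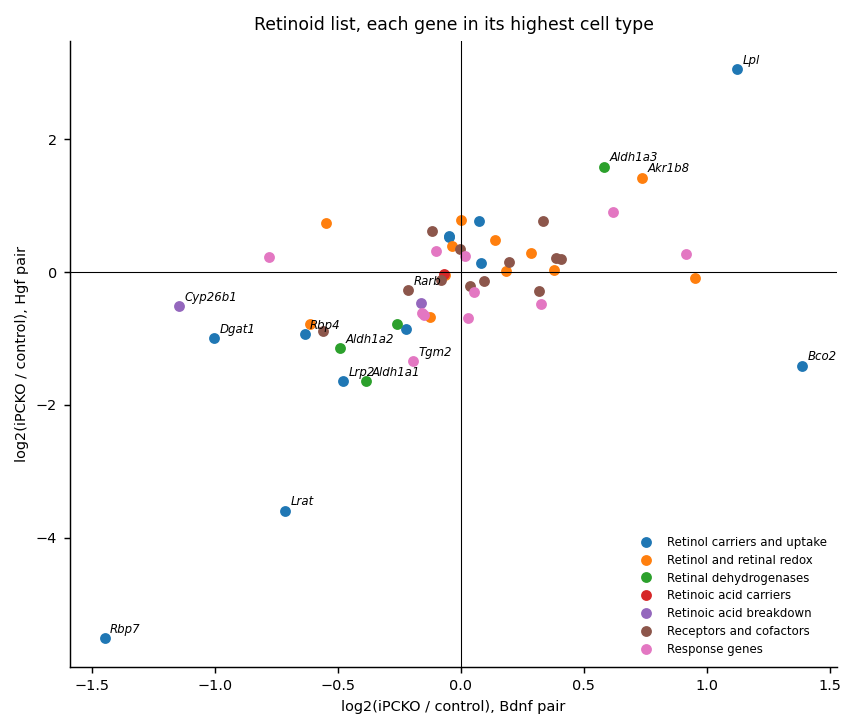
Log2 ratio of iPCKO over control in the Bdnf pair (x axis) and the Hgf pair (y axis) for the 54 listed retinoid genes with at least 20 UMIs in both pairs, each in its highest cell class and coloured by role. Rbp7 and Lrat lie at the lower left and Lpl at the upper right.

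Other steps of the pathway are given by their highest classes. Rdh10, which makes retinal, was highest in club-like cells at 74.1, 67.8, 74.6 and 46.8 CPM. Dhrs3, which turns retinal back to retinol and is itself induced by retinoic acid, stood at 237, 155, 329 and 191 CPM in aCap-like cells, lower in both iPCKO libraries but by less than 2-fold.

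Of the carriers of retinoic acid, Crabp1 had 53, 15, 18 and 0 UMIs in matrix fibroblast-like cells, or 26.5, 16.7, 40.4 and 0 CPM. Its log2 ratio was -0.67 (-1.60 to 0.18) in the Bdnf pair, and the Hgf pair fell short of 20 UMIs. Crabp2 had 7 and 23 UMIs in AT2-like cells of the Bdnf pair, at 0.128 and 0.481 CPM. That is below its level in barcodes without a cell of the same libraries. Among receptors, Rara (81.2, 86.6, 93.0 and 84.5 CPM) and Rarg (178, 182, 237 and 205 CPM) were highest in aCap-like cells, and Rxra stood at 33.5, 30.9, 29.7 and 45.7 CPM in ciliated-like cells. Cyp26a1 had 8, 10, 7 and 4 UMIs in all named cells together, so of these 2 CYP26 genes only Cyp26b1 could be followed.

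Genes whose pattern over the 15 classes was most like that of each gene were found by Pearson's r of log2(CPM + 1), averaged over the 4 libraries, among 13338 genes that are not class markers. These are descriptions across classes that share libraries, with no test. For Cyp26b1 they were Samd12 (0.90), Abcb1a (0.891) and Gata3 (0.873), and for Rbp4 they were Iyd (0.888), Smoc2 (0.857) and C2 (0.826). For Aldh1a1 they were Col8a2 (0.869), A230057D06Rik (0.852) and Six4 (0.845), for Aldh1a2 Scara3 (0.814), Itgbl1 (0.794) and Scara5 (0.771), and for Aldh1a3 Fbln2 (0.725), Gxylt2 (0.706) and Dab2 (0.663). The closest to Rarb, Cfap157 (0.678), Ak7 (0.673) and Ppp1r36 (0.672), were less alike, and for Stra6, which rests on few UMIs, the closest was Lamc3 (0.524).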

How the data were processed

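The 7 genes, the retinoid list and the cell markers were chosen with earlier results of these data known. The authors deposited estimated counts of UMIs per gene and barcode for each library, made, per the submitters' processing notes, with STAR 2.7.10a on GRCm39 from BD Rhapsody whole-transcriptome libraries. The deposited counts are not normalized, and 8.50% to 9.94% of entries are not whole numbers, because reads that match several genes were divided among them; they were summed as they are. Every barcode of the assay is in the files, so cells had to be chosen here.

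Barcodes with at least 1500 (Bdnf) or 700 (Hgf) UMIs were kept as the rule for these genes sets, and those above a mitochondrial share of 23.5% to 28.5% (median plus 3 scaled median absolute deviations) were left out. Each was scored on the markers of every class against the 40 barcodes highest in it. It was named if its best score reached 0.3 with 3 markers detected and the next class stayed below 0.7 of it. This is a cut through a range: 2.91% to 5.26% of cells lay near it, and 8.09% to 15.3% got no name, nearly all because of a second class. That step was the main guard against doublets; Scrublet marked 3.30% to 5.22% of the named cells, at the lower threshold of each pair, which were kept except in an alternative. Cells named endothelial were then placed in the gCap, aCap, arterial, venous or lymphatic subtype by a looser rule. It asked for a best score of 0.2 with 2 markers detected, and the next subtype below 0.8 of it. UMIs were summed per library and class, giving CPM with exact Poisson intervals and log2 ratios with exact conditional intervals at 95%. A ratio needs 20 UMIs over both libraries, a count of 0 is set to 3, and 2-fold is the mark of size. The scripts were tested on simulated data. With 1 library per group there is no replicate, p-value or test, and mouse, strain and library cannot be told apart from genotype. The 2 cortex libraries were not used here.

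The named genes are the 7 in every class with at least 20 cells per library, listed genes at least 2-fold apart with an interval leaving out 0 on 50 UMIs or more in their highest class, fixed pathway genes (1 of them is not reported here), and the 3 genes most like each of the 7. Alternatives were Leiden clusters (scanpy 1.11.5, leidenalg 0.10.2), other UMI minima, no mitochondrial limit, doublets removed, median-of-ratios scaling, whole-number entries, a stricter gate and free RNA subtracted. Promoter windows are RefSeq's, of GRCm38.p6, and gene positions are Gencode's, of GRCm39.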

Additional observations from a re-analysis of the deposited data

Results flagged for a closer look

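Aldh1a1 moved in opposite directions in the 2 pairs in 3 classes, each time with both counting intervals leaving out 0, and the difference between the pairs was not tested. In AT1-like cells, the thin alveolar epithelium, its log2 ratio was -0.38 in the Bdnf pair and 0.24 in the Hgf pair, at levels of 98.0 to 175 CPM that are below those of barcodes without a cell (415 to 547 CPM). Free RNA was estimated at 17.3%, 20.3%, 17.1% and 27.0% of the UMIs of AT1-like cells, and the Hgf ratio turned negative when it was subtracted. In the Hgf iPCKO library 27.0% of the 547 CPM in barcodes without a cell would exceed the 115.5 CPM measured. That share is therefore too high for this gene, and the sign after subtraction decides nothing. In ciliated-like cells it was 0.22 and -0.11. In matrix fibroblast-like cells it was -0.09 and 0.56. All of these are below 2-fold.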

How the results depend on the processing

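No paired analysis was possible because each group is 1 library and the labels give no replicate numbers. The 14 log2 ratios were of the genes in their highest class and of Cyp26b1 in gCap-like cells. They kept their direction under all 9 alternatives (126 of 126 values). The stricter gate tightened only the main classes, not the subtype rule behind the arterial-like and gCap-like ratios. Of the 126 values, 110 stayed inside the counting interval. Those outside it were, for Aldh1a1 in club-like cells of the Bdnf pair (-0.39), -0.34 with whole-number entries, -0.24 with Leiden clusters, -0.35 without doublets, -0.44 with the stricter gate and -0.33 with median-of-ratios scaling. In the Hgf pair (-1.64) they were -1.37 with whole-number entries, -1.30 with Leiden clusters, -1.59 with no mitochondrial limit, -1.75 with the stricter gate and -1.53 with median-of-ratios scaling. Aldh1a2 in adventitial fibroblast-like cells of the Bdnf pair (-0.49) was -0.67 with Leiden clusters and -0.34 with the stricter gate, and Rbp4 there was -0.73 with the stricter gate. Cyp26b1 in the Bdnf pair was -0.93 in arterial-like and -1.67 in gCap-like Leiden clusters, the first below 2-fold, as was Aldh1a2 in adventitial fibroblast-like cells of the Hgf pair with the stricter gate (-0.90, inside its interval), and Cyp26b1 was -1.95 in gCap-like cells of the Hgf pair with at least 3000 UMIs. Of 265 ratios of the 7 genes and the fixed pathway genes over all classes, 223 kept their sign with Leiden clusters, and 2 that were past 2-fold turned: Cyp26b1 in AT1-like cells of the Hgf pair (0.42 against -1.50) and Aldh1a7 in aCap-like cells of the Bdnf pair (-1.64 against 1.24), and the cause was not tested.

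Listed retinoid genes past 2-fold in the Bdnf pair were 4 lower and 2 higher. They were 9 and 8 with no minimum of UMIs, 2 and 1 with a minimum of 100 UMIs, and 2 and 1 with Leiden clusters. With free RNA subtracted 2 were lower, and with at least 3000 UMIs per cell 1 was higher. In the Hgf pair 7 lower and 4 higher became 15 and 8 with no minimum, and 11 were lower with at least 3000 UMIs. The recounts under other gates, without doublets and without free RNA were added after seeing the data. Depth limits Stra6, Crabp2 and Cyp26a1, which rest on few UMIs.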
